A study of Mus musculus with 4 samples.

Results

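Amino acid transporter genes that are known targets of the transcription factor ATF4 were followed in single nuclei of the mouse cortex and hippocampus. The 9 members, *Slc7a11*, *Slc3a2*, *Slc7a5*, *Slc7a1*, *Slc7a3*, *Slc1a4*, *Slc1a5*, *Slc6a9* and *Slc38a2*, were picked by symbol from the 32286 features counted, with earlier results of these data known. Nuclei came from 4 mice aged 5 weeks, 1 mouse per library, and the labels give 2 libraries as Sel1L flox/flox (both alleles of *Sel1l* floxed, no Cre named) and 2 as Sel1L Syn-Cre, in which a Cre transgene driven by the synapsin I promoter, a promoter of postmitotic neurons, acts on the same floxed alleles. Both groups share the C57BL/6J background, and no other allele or agent is named. The comparison asks how these transporters differ between the labelled genotypes in neurons, in oligodendrocyte precursor cells (OPC), in oligodendrocytes and in astrocytes.

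SEL1L is the partner of the ubiquitin ligase HRD1 in ER-associated degradation, which clears misfolded proteins from the endoplasmic reticulum. When misfolded proteins or a shortage of amino acids activate kinases that phosphorylate eIF2α, most translation slows while that of ATF4 rises, and ATF4 switches on genes for amino acid uptake, amino acid synthesis, tRNA charging and its own feedback. In the brain, the cystine and glutamate exchanger encoded by *Slc7a11* is best known from astrocytes, and the large neutral amino acid transporter encoded by *Slc7a5* from the endothelium of the blood-brain barrier.

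The sequences at the start sites of these genes were searched for the element that ATF4 binds. ATF4 binds, with C/EBP partners, a composite element written here as TGATGNAA (N is any base), which was searched on both strands in RefSeq promoters of GRCm38.p6, 250 bases before to 50 bases after each start site. Promoters were found for 6 of the 9 genes. *Slc7a11* held 2 matches, which began 66 and 47 bases before the start site, and *Slc1a4* held 1, which began 4 bases before it. The promoters of *Slc3a2*, *Slc7a1*, *Slc6a9* and *Slc38a2* held none, and *Slc7a5*, *Slc7a3* and *Slc1a5* were not searched. A match was present in 33.3% of the 6 genes, in 42.1% of 38 other ATF4 targets, in 3.03% of 33 other amino acid transporters and in 4.51% of all 27025 genes. Only 23 genes (0.0851%) held 2 or more matches in 1 promoter. The first of the following promoters is shown because it holds 2 matches facing each other and belongs to the gene with the largest change, and the second because its match lies at the start site itself. Each is read 5′ to 3′ along the gene, which lies on the minus strand, with the matches in capitals. A match read as TTGCATCA lies on the opposite strand. A match is a description of these letters and not a measured binding site.
Slc7a11, chr3:50443614-50443863, minus strand: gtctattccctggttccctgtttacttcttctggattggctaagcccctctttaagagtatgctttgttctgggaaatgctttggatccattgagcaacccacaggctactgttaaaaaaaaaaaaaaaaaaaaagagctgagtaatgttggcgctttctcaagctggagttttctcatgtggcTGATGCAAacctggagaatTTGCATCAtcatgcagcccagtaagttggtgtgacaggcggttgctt
Slc1a4, chr11:20332710-20332963, minus strand: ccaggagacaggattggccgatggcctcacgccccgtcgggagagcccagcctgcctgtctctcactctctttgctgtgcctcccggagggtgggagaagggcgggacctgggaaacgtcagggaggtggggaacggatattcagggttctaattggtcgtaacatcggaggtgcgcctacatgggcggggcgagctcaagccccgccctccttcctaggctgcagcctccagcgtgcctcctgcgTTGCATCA

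The 4 libraries held 6797 to 11092 nuclei after filtering and 66328929 to 101036613 UMIs (unique molecular identifiers, each 1 counted RNA molecule), with medians of 7262.5 to 8416 UMIs per nucleus. The libraries shared 10 to 34 cell barcodes by pairs. The labels were checked first. *Sel1l* RNA was at 96.9 and 90.2 CPM (a gene's UMIs scaled to a common library total) in the libraries labelled Sel1L flox/flox and at 155 and 128 CPM in those labelled Sel1L Syn-Cre, which is against the direction of a deletion, although these 3′ counts need not lie in the deleted part and so do not check it. UMIs of the Cre transcript numbered 415 and 0 in the libraries labelled Sel1L flox/flox (replicates 1 and 2) and 235 and 219 in those labelled Sel1L Syn-Cre, so that the library labelled Sel1L flox/flox replicate 1 carried Cre against its label. Its part in the results was not tested beyond leaving it out, and the values without it are given beside the results that it changes. The replicate 1 libraries of both labels came from male mice and the replicate 2 libraries from female mice by *Ddx3y* and *Xist*. Classes of nuclei were named after their marker genes and are called "-like". Levels are CPM scaled by TMM within a class, in the order Sel1L flox/flox replicates 1 and 2, then Sel1L Syn-Cre replicates 1 and 2, unless the sentence says otherwise. Levels of Cre by class and sums of markers are CPM scaled by the UMIs of each class alone. A gene was called when its edgeR quasi-likelihood adjusted p was under 0.05 over all genes tested in that class. The SE of a log2 fold change or difference was worked back from its size and the F statistic of that test. With 2 mice per label, an exact permutation test cannot go below p = 0.33. The edgeR p-values rest on a spread between mice that is moderated over all genes tested in a class. They do not measure the spread of 1 gene between these few mice alone. A lower or higher level of a gene in a class can reflect fewer expressing nuclei or less RNA per nucleus, which summed counts cannot tell apart.

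The largest median change of the classes compared was in OPC-like nuclei, the dividing precursors of oligodendrocytes, which are not neurons. All 8 transporters that could be tested there were higher in the libraries labelled Sel1L Syn-Cre, against 9.17% of 11587 genes called in either direction and 3.78% called as higher. Their median log2 fold change was 2.09, against 0.00 over all genes tested. The ninth, *Slc1a5*, which encodes a sodium-dependent neutral amino acid exchanger with glutamine among its substrates, had 2 to 4 UMIs per library and was too low to test. The heatmap of fold changes by class shows that *Slc7a11*, *Slc3a2*, *Slc7a5* and, by little, *Slc7a1* had their largest fold changes in this class. The others had theirs elsewhere. The largest log2 fold change of *Slc7a3* was in DG-like neurons (3.99) and that of *Slc1a4* in oligodendrocyte-like nuclei (3.20). That of *Slc6a9* was in Lamp5-like neurons (1.30, not called there) and that of *Slc38a2* in Sst-like neurons (1.05).

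**Figure D1:**
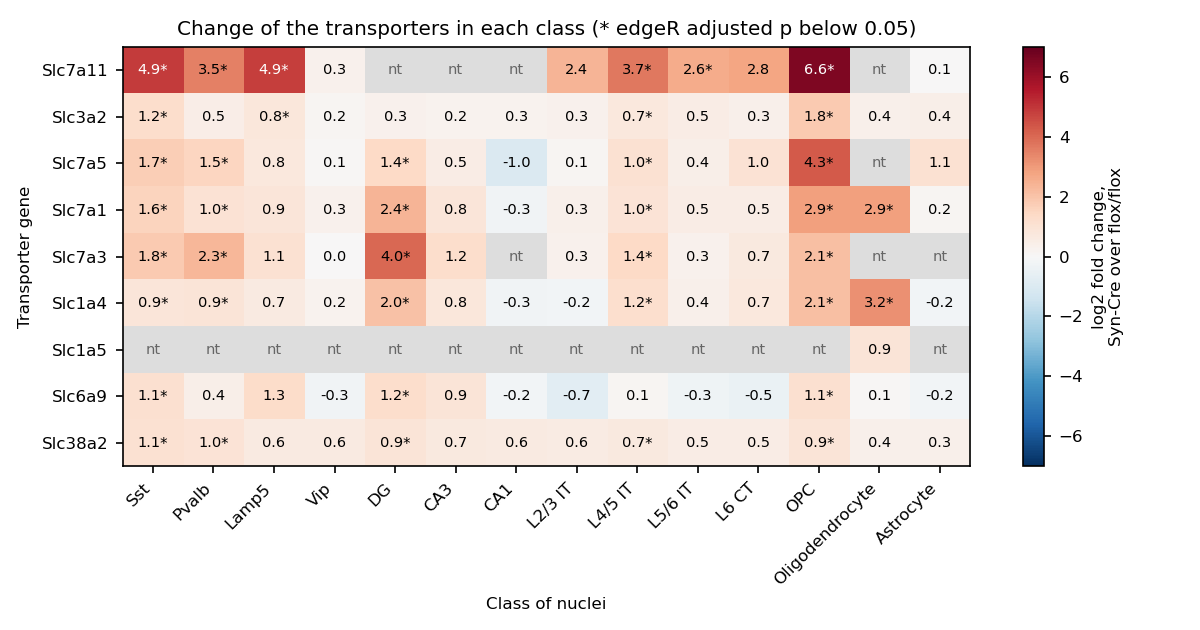
Log2 fold change of each transporter (rows) between the libraries labelled Sel1L Syn-Cre and Sel1L flox/flox (2 mice each) in 11 neuron-like and 3 glia-like classes (columns), red for higher and blue for lower in the libraries labelled Sel1L Syn-Cre. Asterisks mark edgeR adjusted p below 0.05 and nt marks genes too low to test; OPC- and Sst-like nuclei hold 8 calls each, and CA1-, CA3-, Vip-, L2/3 IT-, L6 CT- and astrocyte-like nuclei hold none.

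*Slc7a11* encodes the light chain of the exchanger that imports cystine for glutathione synthesis in return for glutamate. In OPC-like nuclei it had 3 and 0 UMIs in the libraries labelled Sel1L flox/flox and 128 and 41 UMIs in those labelled Sel1L Syn-Cre, or 1.30, 0, 113 and 39.95 CPM. The RNA was thus almost absent from both libraries of the first label and present in both of the second, with no overlap. By summed counts the ratio was 107-fold, with an exact 95% interval of 36.1 to 525.6 that covers counting error only. The fitted log2 fold change was 6.56 ± 0.48 (SE, n = 2 against 2, edgeR adjusted p = 5.12e-17). Because the lower group held only 3 UMIs, its size depends on the prior count, and the SE is narrower than the counting interval. The log2 fold change was 9.65 without the library labelled Sel1L flox/flox replicate 1 that carried Cre, where the other library of that label held 0 UMIs. It was 5.62 without Sel1L Syn-Cre replicate 1.

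*Slc3a2* encodes the heavy chain that carries the SLC7A11 and SLC7A5 light chains to the cell surface. It was at 42.9 and 37.9 CPM in the libraries labelled Sel1L flox/flox and at 179 and 107 CPM in those labelled Sel1L Syn-Cre of OPC-like nuclei (log2 fold change 1.82 ± 0.20 SE, edgeR adjusted p = 2.59e-10). *Slc7a5*, the light chain that imports large neutral amino acids such as leucine, was at 6.07 and 6.89 CPM against 157 and 96.5 CPM (4.28 ± 0.27, edgeR adjusted p = 5.00e-20). Neither gene overlapped between the labels, and the replicate 1 library of Sel1L Syn-Cre was the higher of its pair for the heavy chain and both light chains.

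*Slc7a1* and *Slc7a3* encode cationic amino acid transporters, which take up arginine and lysine. In OPC-like nuclei *Slc7a1* was at 16.04 and 18.9 CPM against 162 and 96.5 CPM (2.89 ± 0.23 SE, edgeR adjusted p = 1.37e-15). *Slc7a3* was at 11.3 and 16.1 CPM against 67.3 and 48.7 CPM (2.10 ± 0.27, edgeR adjusted p = 1.18e-08). Both were several times above every library labelled Sel1L flox/flox in each library labelled Sel1L Syn-Cre.

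*Slc1a4* encodes a neutral amino acid exchanger for alanine, serine and cysteine, *Slc6a9* a glycine transporter and *Slc38a2* a sodium-coupled importer of small neutral amino acids. *Slc1a4* was at 19.5 and 14.9 CPM against 84.1 and 63.3 CPM in OPC-like nuclei (2.08 ± 0.24 SE, edgeR adjusted p = 9.19e-10). *Slc6a9* was at 19.5 and 25.3 CPM against 54.0 and 41.9 CPM (1.11 ± 0.25, edgeR adjusted p = 0.00123). *Slc38a2* was at 122 and 135 CPM against 244 and 234 CPM (0.90 ± 0.16, edgeR adjusted p = 3.89e-05). The glycine transporter and *Slc38a2* had the smallest folds of the 8, and neither overlapped between the labels. All 8 tested genes had both libraries labelled Sel1L Syn-Cre above both of the other label, against 22.9% of genes tested. So did *Slc1a5* by CPM, but with only 3, 3, 4 and 2 UMIs. Without the library labelled Sel1L flox/flox replicate 1 that carried Cre, 7 of the 8 calls in OPC-like nuclei remained and that of *Slc6a9* was lost (log2 fold change 0.92, edgeR adjusted p = 0.174), and without Sel1L Syn-Cre replicate 1 it was lost as well (0.91, edgeR adjusted p = 0.0607). *Slc6a9* overlaps 3 genes on the other strand, *Gm17114*, *Ccdc24* and *B4galt2*, and the sources used here do not state how strand was counted.

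The OPC-like nuclei carried their own markers under both labels, somewhat lower in both libraries labelled Sel1L Syn-Cre. The 5 OPC markers summed to 11050 and 11160 CPM in the libraries labelled Sel1L flox/flox and to 10220 and 9525 CPM in those labelled Sel1L Syn-Cre. Of the other lists, those of oligodendrocyte, immature oligodendrocyte and astrocyte markers differed between the labels without overlap, while that of neuron markers overlapped. The 6 oligodendrocyte markers summed to 3361 and 2417 CPM against 128 and 225 CPM, the 5 immature oligodendrocyte markers to 2661 and 2497 CPM against 1062 and 1079 CPM, the 6 astrocyte markers to 369 and 451 CPM against 529 and 670 CPM, and the 6 neuron markers to 494 and 498 CPM against 491 and 556 CPM. Their part in the result was not tested, except that with classes named without integration, where immature oligodendrocyte-like nuclei formed a class of their own, all 8 calls remained, with log2 fold changes of 7.54 for *Slc7a11*, 4.07 for *Slc7a5*, 3.25 for *Slc7a1* and 1.88 for *Slc3a2*.

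The plot of levels by library sets the OPC-like nuclei beside Sst-, CA1- and astrocyte-like nuclei.

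**Figure D2:**
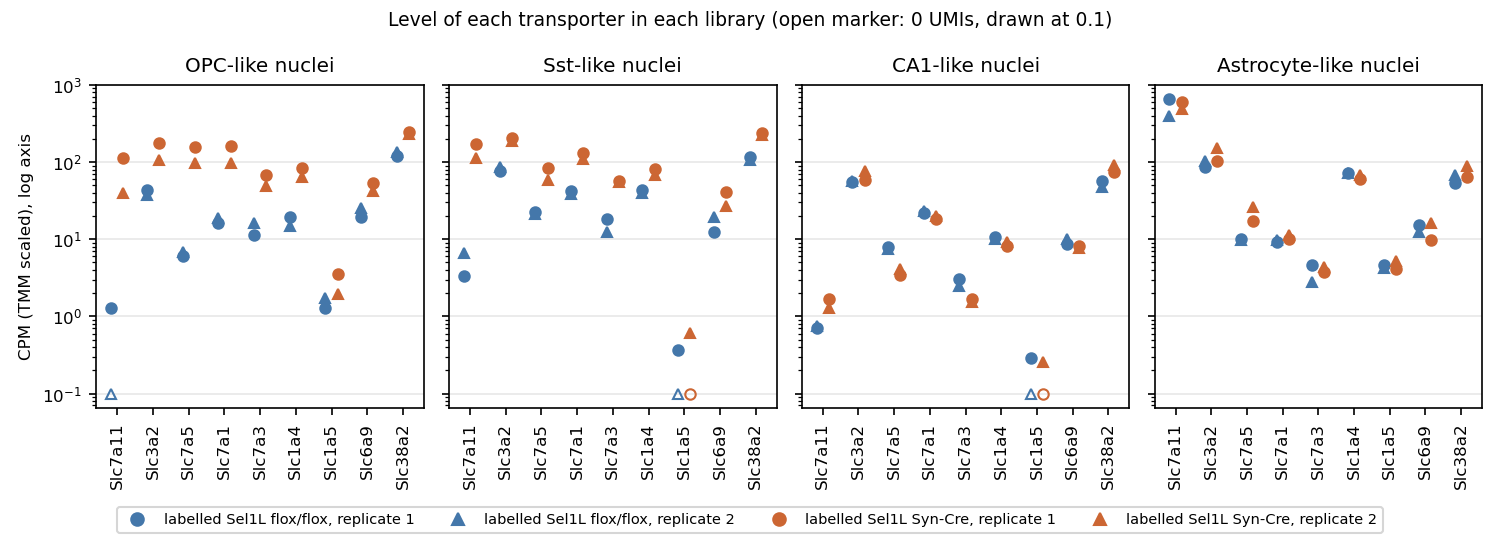
Level of the 9 transporters in each of the 4 libraries (CPM scaled by TMM, log axis) in 4 classes, blue for libraries labelled Sel1L flox/flox and orange for Sel1L Syn-Cre, circles for replicate 1 and triangles for replicate 2, open symbols for 0 UMIs drawn at 0.1. In OPC- and Sst-like nuclei the orange symbols of all 8 tested genes lie above the blue ones, whereas in CA1-like nuclei both orange symbols lie above the blue ones for 3 genes and below them for 5, and in astrocyte-like nuclei the colours overlap for 6 of the 9. Of all genes tested in OPC-like nuclei, 22.9% had both libraries labelled Sel1L Syn-Cre above both others. Shares for the other classes shown are not given here.

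In neurons the change was uneven. Over all neuron-like nuclei summed 1 of the 9 transporters was called, against 0.124% of 20095 genes. *Slc7a11* was at 1.39 and 1.72 CPM against 20.7 and 8.58 CPM (log2 fold change 3.24 ± 0.40 SE, edgeR adjusted p = 0.047). *Slc38a2*, at 79.3 and 75.1 CPM against 121 and 122 CPM, missed the threshold (0.66 ± 0.08, edgeR adjusted p = 0.0513). In both genes each library labelled Sel1L Syn-Cre was above each library labelled Sel1L flox/flox, as were those of 6 further transporters (8 of 9 in all, against 22.9% of all genes), and *Slc6a9* alone overlapped (9.09, 10.4, 11.9 and 8.63 CPM). The *Slc7a11* call was lost without Sel1L flox/flox replicate 1 (edgeR adjusted p = 0.0829) or replicate 2 (edgeR adjusted p = 0.0506), and its log2 fold change was 2.47 without Sel1L Syn-Cre replicate 1. *Slc38a2* had a log2 fold change of 0.696 without Sel1L flox/flox replicate 1 and of 0.614 without Sel1L flox/flox replicate 2. It was the gene called in each of these fits. DESeq2 called 7 of the 9, and the share of all genes that it called is not given here.

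The 11 subtypes compared do not take in all neuron-like nuclei, because some clusters stayed unnamed or were not compared. In these 11 subtypes, 30 calls of a transporter in a subtype were made, all of them higher in the libraries labelled Sel1L Syn-Cre. Sst-like interneurons, which inhibit the distal dendrites of pyramidal cells, held the most, with 8 of the 8 that could be tested, against 8.73% of 11821 genes (4.75% as higher), and a median log2 fold change of 1.41 against 0.01 over all genes.

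In Sst-like neurons *Slc7a11* had 9 and 12 UMIs in the libraries labelled Sel1L flox/flox and 330 and 184 in those labelled Sel1L Syn-Cre, or 3.33, 6.54, 173 and 113 CPM (4.92 ± 0.28 SE, edgeR adjusted p = 6.52e-09). Its heavy chain *Slc3a2* was at 76.9, 87.2, 203 and 187 CPM (1.25 ± 0.14, edgeR adjusted p = 1.74e-05). The other light chain, *Slc7a5*, was at 22.5, 21.3, 84.5 and 58.1 CPM (1.70 ± 0.21, edgeR adjusted p = 3.71e-05). The labels did not overlap for any of the 3 genes, and the gap between them was wider than that between the libraries of either label. Non-overlap alone is common with 2 libraries per label. In all neuron-like, Lamp5- and OPC-like nuclei, 22.9%, 21.6% and 22.9% of all genes had both libraries labelled Sel1L Syn-Cre above both others. The share in Sst-like neurons is not given here. The arginine and lysine transporter *Slc7a1* was at 42.5, 38.2, 133 and 109 CPM (1.58 ± 0.17, edgeR adjusted p = 7.43e-06) and its relative *Slc7a3* at 18.5, 12.5, 57.7 and 54.4 CPM (1.82 ± 0.22, edgeR adjusted p = 3.26e-05). *Slc38a2* was at 115, 107, 236 and 225 CPM (1.05 ± 0.14, edgeR adjusted p = 5.87e-05). These 3 rose in both libraries labelled Sel1L Syn-Cre by like amounts. The weakest calls were those of *Slc1a4*, at 42.9, 40.3, 82.4 and 67.9 CPM (0.85 ± 0.17, edgeR adjusted p = 0.00358), and of *Slc6a9*, at 12.6, 19.6, 40.9 and 26.9 CPM (1.12 ± 0.27, edgeR adjusted p = 0.0139). Of the 8 transporters, 6 were called with DESeq2, 7 with doublets kept and 7 with thinned counts. The *Slc6a9* call was lost when Sel1L flox/flox replicate 1 (edgeR adjusted p = 0.234) or Sel1L Syn-Cre replicate 1 (edgeR adjusted p = 0.191) was left out, and the other 7 remained without any 1 library.

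L4/5 IT-like projection neurons of the cortex held 7 calls of 8 tested, against 1.30% of 14717 genes, with a median log2 fold change of 1.01. *Slc7a11* was at 0.544, 1.72, 18.3 and 9.76 CPM there (3.67 ± 0.47 SE, edgeR adjusted p = 0.00983), and *Slc7a3* at 6.75, 7.29, 22.9 and 14.8 CPM (1.41 ± 0.24, edgeR adjusted p = 0.0241). The remaining exception was *Slc6a9*, at 8.60, 10.3, 12.7 and 8.19 CPM, where the labels overlapped. All 7 calls remained without the library labelled Sel1L flox/flox that carried Cre, with a log2 fold change of 2.99 for *Slc7a11*, which was 4.62 without the other library of that label. Without Sel1L Syn-Cre replicate 1 the call of *Slc7a11* alone was left, without Sel1L Syn-Cre replicate 2 those of *Slc3a2* and *Slc38a2* were lost, and none was left with counts thinned to the smallest total of a subtype and library.

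DG-like granule neurons, the principal cells of the dentate gyrus, held 6 calls of 7 tested, against 3.97% of 13057 genes, with a median log2 fold change of 1.37. The cationic amino acid transporters led, *Slc7a1* at 10.4, 7.92, 64.0 and 33.1 CPM (2.39 ± 0.27 SE, edgeR adjusted p = 0.000127) and *Slc7a3* with 6, 1, 64 and 13 UMIs (3.99 ± 0.71, edgeR adjusted p = 0.00509). *Slc1a4* followed at 5.79, 6.99, 32.4 and 19.8 CPM (2.05 ± 0.26, edgeR adjusted p = 0.00047). In these 3 genes replicate 1 labelled Sel1L Syn-Cre was the highest library, and without it the call of *Slc7a3* was lost (log2 fold change 2.53). The call of *Slc6a9*, at 4.75, 4.66, 14.1 and 8.13 CPM (edgeR adjusted p = 0.0442), was lost without that library or without either library labelled Sel1L flox/flox. *Slc7a11* was too low to test in DG-like neurons, with 5, 2, 23 and 3 UMIs, so that the rise stood in a single library, and *Slc3a2* was not called (60.7, 55.7, 81.7 and 60.7 CPM). With thinned counts 3 transporters were called in DG-like neurons.

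Pvalb-like interneurons, which inhibit the cell bodies of pyramidal cells, held 6 calls of 8 tested, against 4.13% of 12294 genes, with a median log2 fold change of 1.00. *Slc7a11* was at 5.94, 9.25, 127 and 41.96 CPM (3.50 ± 0.46 SE, edgeR adjusted p = 0.00118) and *Slc7a3* at 8.61, 10.9, 70.5 and 28.2 CPM (2.35 ± 0.38, edgeR adjusted p = 0.00435). *Slc3a2* (115, 136, 186 and 161 CPM) and *Slc6a9* (17.2, 21.4, 33.2 and 17.3 CPM) were not called. The 2 libraries labelled Sel1L Syn-Cre lay far apart for *Slc7a11* and *Slc7a3*, both above the other label. Without Sel1L flox/flox replicate 1 the calls of *Slc7a1*, *Slc1a4*, *Slc7a3* (edgeR adjusted p = 0.0502) and *Slc7a5* (edgeR adjusted p = 0.0546) were lost, and without Sel1L Syn-Cre replicate 1 that of *Slc7a1*, where *Slc7a11* had a log2 fold change of 2.50 and *Slc7a3* of 1.55. With no filter on low counts 1 transporter was called.

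Lamp5-like interneurons held 2 calls of 8 tested, *Slc7a11* and *Slc3a2*, against 1.31% of 9845 genes, and L5/6 IT-like neurons 1 of 8, *Slc7a11*, against 0.711% of 13077 genes. *Slc7a11* had 4, 0, 68 and 37 UMIs in Lamp5-like neurons (4.85 ± 0.59 SE, edgeR adjusted p = 0.000613) and 13, 2, 49 and 29 UMIs in L5/6 IT-like neurons (2.57 ± 0.49, edgeR adjusted p = 0.0289). Their log2 fold changes were 8.69 and 4.15 without Sel1L flox/flox replicate 1. The other library of that label held only 0 and 2 UMIs, so these sizes depend on the prior count or on few molecules. Without any other 1 library they were 4.13 to 5.29 and 1.99 to 2.9. With no filter on low counts both *Slc7a11* calls were lost (edgeR adjusted p = 0.0591 and 0.683). With DESeq2 no transporter was called in either class (adjusted p = 0.0726 for *Slc7a11* in L5/6 IT-like neurons). The *Slc7a11* call in L5/6 IT-like neurons was also lost with classes named without integration (edgeR adjusted p = 0.219). The *Slc3a2* call in Lamp5-like neurons (89.6, 91.5, 161 and 153 CPM, edgeR adjusted p = 0.0341) was lost without any of 3 libraries, all but Sel1L flox/flox replicate 1, without which it held. All 8 tested genes in Lamp5-like neurons had both libraries labelled Sel1L Syn-Cre above both of the other label, against 21.6% of genes.

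No transporter was called by edgeR in L2/3 IT-, L6 CT-, CA3-, CA1- or Vip-like neurons, where 0.426%, 0.359%, 0.0410%, 0% and 0.0176% of genes were called. At an unadjusted p under 0.05, 4 of 8, 7 of 8, 6 of 7, 2 of 6 and 1 of 8 transporters passed in these subtypes in either direction, against 1914 of 15267, 1528 of 14213, 994 of 12187, 1103 of 12900 and 758 of 11370 of all genes tested, and DESeq2 called none in them. Of those that passed, *Slc6a9* in L2/3 IT-like neurons (-0.75) and *Slc7a5* in CA1-like neurons lay lower under Sel1L Syn-Cre. Their median log2 fold changes were 0.32, 0.59, 0.79, -0.23 and 0.20. CA1-like neurons thus had the lowest median of the 11 subtypes. There *Slc7a5* was at 8.03 and 7.40 CPM against 3.39 and 4.14 CPM, lower under Sel1L Syn-Cre in both libraries (-1.03 ± 0.33 SE, edgeR adjusted p = 0.46), *Slc7a1* at 22.1, 23.4, 18.1 and 19.9 CPM, and *Slc38a2* at 57.1, 48.1, 73.5 and 91.7 CPM (0.65 ± 0.15, edgeR adjusted p = 0.29). *Slc7a11* stayed at 3 to 6 UMIs per library in CA1-like neurons, and *Slc7a3*, with 21, 10, 6 and 6 UMIs, was also too low to test. Without Sel1L flox/flox replicate 1, 1 transporter was called in each of the L2/3 IT-, CA1- and Vip-like neurons and 2 in CA3-like neurons, and without Sel1L Syn-Cre replicate 2 another 2 in L6 CT-like neurons. *Slc38a2* was also called in CA3-like neurons without Sel1L flox/flox replicate 2 (0.66, edgeR adjusted p = 0.039). With replicate number as a block, which coincides with the sex of the mice, 2 were called in L2/3 IT-like neurons (*Slc7a11* and *Slc38a2*). In L6 CT-like neurons 4 were (*Slc7a11*, *Slc7a5*, *Slc7a1* and *Slc38a2*). The block also raised the calls of amino acid transporters outside the set. The shares of all genes called under these alternatives are not given here, so the added calls are not set against other genes.

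The plot of *Slc7a11* and *Slc7a5* in the 14 classes compared between the labels shows how differently the 2 light chains were distributed.

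**Figure D3:**
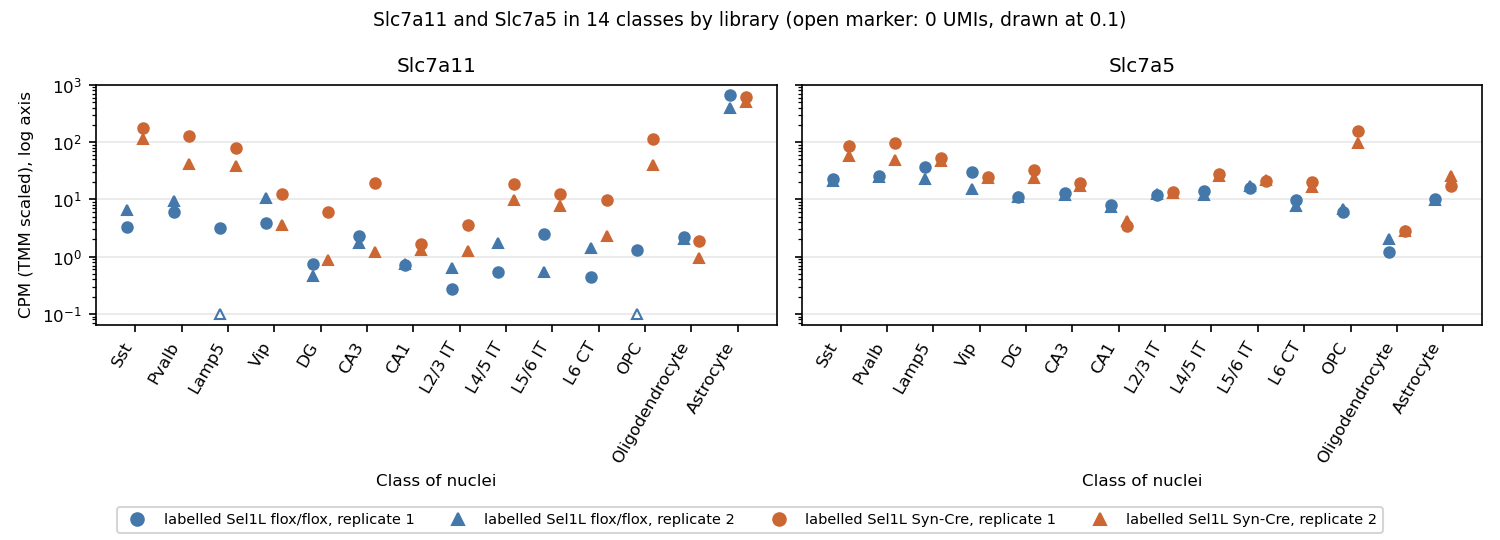
Level of Slc7a11 (left) and Slc7a5 (right) in each library (CPM scaled by TMM, log axis) in 11 neuron-like and 3 glia-like classes, blue for libraries labelled Sel1L flox/flox and orange for Sel1L Syn-Cre, circles for replicate 1 and triangles for replicate 2. Astrocyte-like nuclei hold Slc7a11 at 401 to 654 CPM under both labels, and in OPC-like nuclei both genes stand at 6.89 CPM or less in blue and at 39.95 CPM or more in orange.

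Endothelial-like nuclei, with 66 to 247 nuclei per library, were not compared between the labels. Their leading genes included *Flt1* and *Cldn5* but also *Slc6a20a*, *Ptgds* and *Bmp6*. With classes named without integration, *Slc7a11* was, like *Slc6a20a*, *Ptgds* and *Bmp6*, a leading gene of an unnamed cluster of 180 nuclei. It was not one of the endothelial-like cluster of 466 nuclei. Which nuclei held the *Slc7a11* RNA was not tested. By CPM scaled by the UMIs of each class alone the endothelial-like nuclei held *Slc7a11* at 1113, 1430, 1346 and 844 CPM and *Slc7a5* at 271, 385, 251 and 200.2 CPM, above each of the 14 classes compared in every library. On the same scale *Slc7a11* in the libraries labelled Sel1L flox/flox came next in astrocyte-like nuclei (mean 514 CPM), followed at a distance by Pvalb- (7.37), Vip- (7.09) and Sst-like neurons (4.77), and the rest of the 14 classes lay at 2.11 CPM or less. Astrocyte-like nuclei stood above Pvalb-like neurons in both libraries, while Pvalb-, Vip- and Sst-like neurons overlapped one another. In the libraries labelled Sel1L Syn-Cre the order of the 14 classes was astrocyte-like nuclei (544), then Sst- (145), Pvalb- (85.7), OPC- (75.7) and Lamp5-like nuclei (58.5), whose neighbours overlapped, and then L4/5 IT-like neurons (14.1), which lay below Lamp5-like neurons in both libraries. By mean level, OPC-like nuclei were among the lowest 3 classes in the first order and among the highest 4 in the second. Their place in the first order rests on 3 and 0 UMIs and overlapped with that of neighbouring classes. Among the 14, *Slc7a5* was led by Lamp5-like neurons (27.2) under Sel1L flox/flox, with OPC- (6.36) and oligodendrocyte-like nuclei (1.59) at the end, and by OPC-like nuclei (125) under Sel1L Syn-Cre, where they and Pvalb-like neurons (73.2) overlapped.

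Whether the change differed between subtypes was tested directly, as the difference of the genotype effect from that in CA1-like neurons, in 1 edgeR model with library as a term. Of the transporters, 6 differed in Sst-like neurons (3.23% of 16245 genes), 5 in DG-like neurons (1.50%), 4 in Pvalb-like neurons (2.23%), 2 in L4/5 IT-like neurons (0.431%) and 1 in L6 CT-like neurons (0.0492%). *Slc7a5*, lowest in CA1-like neurons, differed in all 5 of these subtypes, by 2.68 ± 0.38 (log2 difference ± SE, edgeR adjusted p = 1.5e-05) in Sst-, 2.47 ± 0.37 in Pvalb-, 2.37 ± 0.38 in DG-, 2.08 ± 0.37 in L4/5 IT- and 2.03 ± 0.38 in L6 CT-like neurons. Each difference also holds the change in CA1-like neurons, where the log2 fold change of *Slc7a5* was -1.03 and not called. In L6 CT-like neurons the log2 fold change of *Slc7a5* itself was 1.01 (edgeR adjusted p = 0.101). In Lamp5-like neurons (0.406% of genes) its difference missed the threshold, at 1.73 ± 0.43 (edgeR adjusted p = 0.0544). *Slc7a11*, scarce in CA1-like neurons, did not pass in any of them, with 3.93 ± 1.26 in Sst-like neurons (edgeR adjusted p = 0.08). The number of calls against CA1-like neurons was 18, and it was 8 without Sel1L flox/flox replicate 1 and 7 without Sel1L Syn-Cre replicate 1.

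In oligodendrocyte-like nuclei, the myelinating cells, 2 of 6 tested transporters were called, against 0.863% of 11475 genes (0.697% as higher). The class held 1848 and 1174 nuclei in the libraries labelled Sel1L flox/flox and 358 and 365 in those labelled Sel1L Syn-Cre. What part RNA from other cells had in the counts of this class was not tested. *Slc7a1* had 19, 9, 23 and 21 UMIs, or 2.85, 2.63, 21.3 and 19.7 CPM (2.87 ± 0.35 SE, edgeR adjusted p = 0.00918), and *Slc1a4* 9, 4, 15 and 11 UMIs, or 1.35, 1.17, 13.9 and 10.3 CPM (3.20 ± 0.48, edgeR adjusted p = 0.0196). Both were low under Sel1L flox/flox in each library and did not overlap with the other label. The share of all genes that did so in oligodendrocyte-like nuclei is not given here, and in OPC-like nuclei it was 22.9%. *Slc38a2*, at 336, 443, 384 and 623 CPM, and *Slc6a9*, at 55.6, 66.6, 73.0 and 57.2 CPM, overlapped between the labels. *Slc7a11* stayed at 15, 7, 2 and 1 UMIs in the 4 libraries, a ratio by summed counts of 0.652 with an exact 95% interval of 0.1248 to 2.17. With doublets kept both calls were lost (edgeR adjusted p = 0.0779 for *Slc7a1* and 0.18 for *Slc1a4*), and without Sel1L Syn-Cre replicate 1 that of *Slc1a4* was lost.

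Astrocyte-like nuclei held no call among 7 tested transporters, against 0.952% of 11763 genes. At an unadjusted p under 0.05, 1 of the 7 passed, against 1526 of the 11763 genes, and DESeq2 called none. *Slc7a11* was at 654, 401, 604 and 493 CPM, the labels overlapping (0.05 ± 0.22 SE, edgeR adjusted p = 0.965). *Slc7a5* was at 9.99, 9.79, 17.3 and 25.9 CPM, with both libraries labelled Sel1L Syn-Cre above the others (1.06 ± 0.39, edgeR adjusted p = 0.267), and *Slc1a4* at 72.0, 72.7, 59.8 and 67.3 CPM, with both below. The 5 choroid plexus markers, which are not astrocyte genes, summed to 640, 275, 2014 and 1635 CPM in this class, and their part in these values was not tested.

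The genotype effect in glia was also tested against that in all neuron-like nuclei. In OPC-like nuclei 6 transporters differed (2.95% of 14966 genes), all in the direction of a larger change in OPC-like nuclei, by 3.55 ± 0.33 for *Slc7a5* (log2 difference ± SE, edgeR adjusted p = 8.07e-06), 3.48 ± 0.80 for *Slc7a11* (edgeR adjusted p = 0.0195), 2.14 ± 0.24 for *Slc7a1*, 1.499 ± 0.24 for *Slc1a4*, 1.38 ± 0.28 for *Slc3a2* and 1.17 ± 0.29 for *Slc7a3*. *Slc6a9* missed the threshold (1.03 ± 0.28, edgeR adjusted p = 0.0554). In oligodendrocyte-like nuclei *Slc7a1* (2.04 ± 0.33) and *Slc1a4* (2.54 ± 0.40) differed (0.702% of genes), and in astrocyte-like nuclei *Slc7a11* did, with a smaller effect than in neurons (-3.04 ± 0.34, edgeR adjusted p = 0.000253, 1.36% of genes). Of these 9 calls, 4 were made without Sel1L flox/flox replicate 1.

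Counts per nucleus show how widely the RNAs were spread. Each nucleus was thinned to 2000 UMIs, so that depth does not set the share, and 7 to 27 OPC-like nuclei per library were too shallow to enter. *Slc7a11* RNA was detected in 1 of 505 (0.198%, 95% Wilson interval 0.03 to 1.11) and 0 of 395 (interval up to 0.96%) OPC-like nuclei labelled Sel1L flox/flox, and in 59 of 272 (21.7%, 17.2 to 27.0) and 16 of 237 (6.75%, 4.2 to 10.7) of those labelled Sel1L Syn-Cre. In CA1-like neurons, a class near the bottom of the order, the share was 0% to 0.352% in the 4 libraries, and in astrocyte-like nuclei it was 48.2% to 54.3%. Median depths before thinning were 3760 to 4121 UMIs in OPC-like, 11239 to 12504 in CA1-like and 3012.5 to 3297 in astrocyte-like nuclei.

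At least 1 of the 8 transporters other than *Slc1a5* was detected in 38.8% and 37.5% of OPC-like nuclei labelled Sel1L flox/flox and in 87.1% and 73.4% of those labelled Sel1L Syn-Cre. In Sst-like neurons the shares were 49.0% and 46.1% against 84.4% and 80.5%, and CA1-like neurons stood at 29.7%, 28.2%, 30.6% and 36.2%. Detection of 2 or more transporters in a nucleus had a share of 6.54% and 5.82% against 58.5% and 32.5% in OPC-like nuclei. In Sst-like neurons it was 13.3% and 8.89% against 52.6% and 48.1%. A share of 3 or more, at most 1.27% under Sel1L flox/flox in OPC-like nuclei, was 29.4% and 12.7% under Sel1L Syn-Cre. These shares were given no test, and their intervals cover counting error only. They were not overlapping between the labels in OPC- and Sst-like nuclei. How often detection shares of other genes separate in this way is not given here, so the separation is not set against them.

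**Figure D4:**
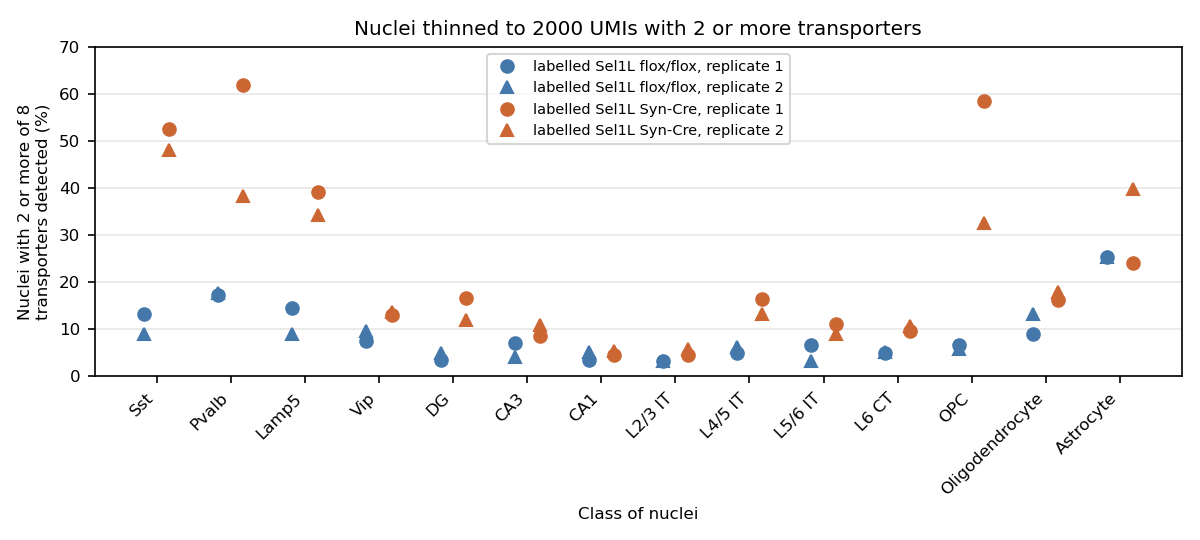
Share of nuclei, after thinning to 2000 UMIs, with at least 2 of 8 transporters detected (percent), per library and class, blue for libraries labelled Sel1L flox/flox and orange for Sel1L Syn-Cre, circles for replicate 1 and triangles for replicate 2. Sst-, Pvalb-, Lamp5- and OPC-like nuclei labelled Sel1L Syn-Cre stand at 32.5% to 61.9%, and the same classes labelled Sel1L flox/flox at 5.82% to 17.7%.

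The other transporters were also counted in nuclei with and without *Slc7a11* RNA. Of the OPC-like nuclei of Sel1L Syn-Cre replicate 1 with an *Slc7a11* UMI, 76.3% (95% Wilson interval 64.0 to 85.3) had a UMI of 1 or more of 6 others (*Slc38a2* and *Slc1a5* aside), against 70.9% (64.5 to 76.6) of those without. In Sst-like neurons the shares were 67.6% and 67.6% in replicate 1 and 74.2% and 62.6% in replicate 2, with wide intervals. Nuclei labelled Sel1L flox/flox without *Slc7a11* RNA stood at 19.2% and 20.3% in OPC-like nuclei.

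The Cre transcript was followed by class because its promoter is a neuronal one. In the libraries labelled Sel1L Syn-Cre its level was 29.0 and 25.2 CPM in Pvalb-like, 17.5 and 13.2 in Sst-like, 17.4 and 11.7 in OPC-like and 10.3 and 9.52 in Lamp5-like nuclei, and it was at 0.279 and 0.27 in CA1-like neurons and at 0 in both libraries in oligodendrocyte-like nuclei. OPC-like nuclei held 20 and 12 Cre UMIs, within the range of the interneurons. Over 14 classes the mean Cre level went with the median fold change of the transporters (Pearson r 0.631, Spearman rho 0.793). Without Pvalb- and Sst-like neurons r was 0.845 and rho 0.769. These values describe classes that share the same 4 libraries, and each median covers only the transporters tested in that class. CA3-like neurons, with Cre at 4.45 and 8.09 CPM, held no call, while DG-like neurons, at 5.53 and 7.11 CPM, held 6. In the library labelled Sel1L flox/flox replicate 1, Cre was at a like level, with 29.9 CPM in Pvalb-, 20.9 in Sst- and 13.3 in OPC-like nuclei. On the same scale *Slc7a11* in these classes of that library was at 5.645, 3.134 and 1.246 CPM, beside the other library of its label. *Sel1l* RNA over the 4 libraries was at 93.4, 88.55, 462 and 302 CPM in Pvalb-like and at 122.5, 93.8, 423 and 184 CPM in OPC-like nuclei. It was at 112, 105, 300 and 184 CPM in oligodendrocyte-like nuclei. In CA1-like neurons it was at 116, 108, 114.5 and 102 CPM, where the labels overlapped.

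**Figure D5:**
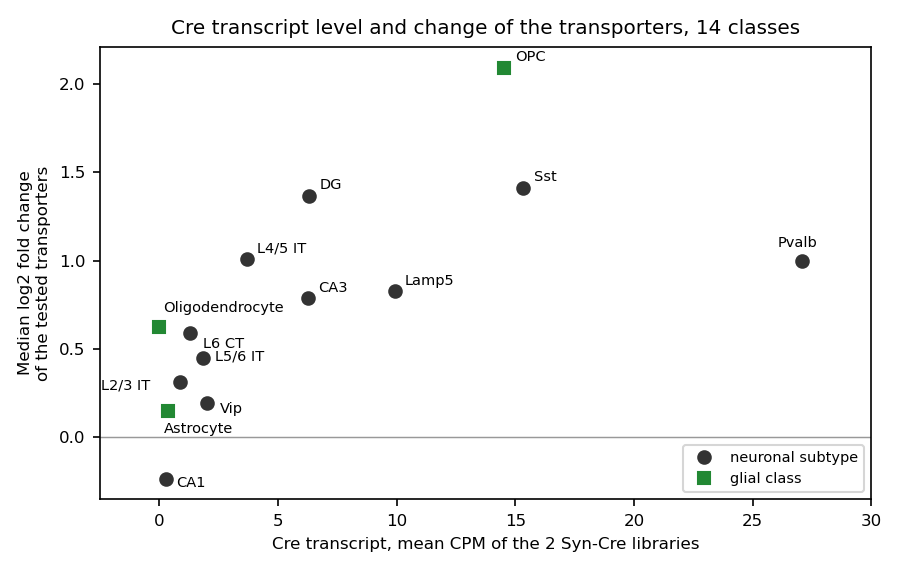
Mean Cre transcript level in the 2 libraries labelled Sel1L Syn-Cre (CPM) against the median log2 fold change of the tested transporters, 1 point per class, circles for 11 neuron-like and squares for 3 glia-like classes. CA1-like neurons lie lowest at -0.23 and 0.274 CPM, OPC-like nuclei highest at 2.09 and 14.5 CPM, and Pvalb-like neurons have the highest Cre level, 27.1 CPM, with a median of 1.00.

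Other ATF4 targets were taken from a list of 46 genes for feedback, amino acid synthesis and tRNA charging. In Sst-like neurons 38 of 42 tested were called, all higher, against 4.75% of all genes as higher, with a median log2 fold change of 1.28, and the largest were *Trib3* (4.01), *Cth* (3.31), *Ddit3* (3.21), *Phgdh* (2.89) and *Nupr1* (2.83), of which *Ddit3* encodes the transcription factor CHOP, *Phgdh* the first enzyme of serine synthesis and *Cth* the enzyme that makes cysteine from cystathionine. In OPC-like nuclei 31 of 37 were called, all higher, against 3.78% of all genes as higher, with a median of 1.55. They were the feedback genes *Ddit3*, *Atf5*, *Sesn2*, *Cebpg*, *Eif4ebp1*, *Nupr1*, *Gdf15* and *Herpud1*, the synthesis genes *Asns*, *Psat1*, *Phgdh*, *Psph*, *Shmt2*, *Mthfd2*, *Aldh1l2*, *Mthfd1l*, *Aldh18a1*, *Gpt2* and *Pck2*, and the tRNA genes *Aars*, *Cars*, *Eprs*, *Gars*, *Iars*, *Lars*, *Mars*, *Nars*, *Sars*, *Tars*, *Yars* and *Xpot*. In oligodendrocyte-like nuclei 11 of 33 were called, against 0.697% of all genes as higher, *Ddit3*, *Atf5*, *Cebpg*, *Nupr1*, *Herpud1*, *Asns*, *Mthfd2*, *Cars*, *Nars*, *Sars* and *Yars*, and in astrocyte-like nuclei none of 33. Both lists had their most calls in Sst-like neurons and OPC-like nuclei, which were also the classes with the most calls over all genes. *Nupr1*, a stress-induced chromatin protein, was at 0.599, 1.17, 50.8 and 81.6 CPM in oligodendrocyte-like nuclei, where *Slc7a11* was too low to test.

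The 44 amino acid transporters outside the set had medians near 0, 0.05 in Sst-like neurons and 0.12 in OPC-like nuclei. In Sst-like neurons *Slc38a1* was called as higher (log2 fold change 0.75) and the taurine transporter *Slc6a6* (-0.65) as lower. In OPC-like nuclei 3 of 24 tested were called, against 9.17% of all genes. There *Slc38a3* (0.91) and the glutamate transporter *Slc1a2* (0.82) were higher and *Slc1a1* (-0.59) was lower. In DG-like neurons 2 of 25 were called, both lower, against 3.97% of all genes, and they were *Slc1a3* (-0.76) and *Slc6a15* (-0.60), named after their values were seen. *Slc1a1* was higher in oligodendrocyte-like nuclei (1.39), and *Slc6a20a* was the one called in astrocyte-like nuclei, at 13.3, 4.196, 70.4 and 74.2 CPM (2.85). *Slc6a20a* was also a leading gene of the endothelial-like cluster, and the choroid plexus markers in astrocyte-like nuclei were likewise higher under Sel1L Syn-Cre. The part of other cells in this call was not tested.

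Across the 11 neuronal subtypes, the genes whose fold changes ran most alike were sought among 12585 genes, by Pearson correlation over subtypes of the same 4 libraries, as a description. *Slc7a1* was closest to *Eif2ak3* (r 0.966), *Slc7a3* (0.957) and *Iars* (0.942), *Slc7a3* to *Slc7a1*, *Araf* (0.946) and *Trim66* (0.939), and *Slc1a4* to *Slc7a3* (0.924), *Iars* (0.917) and *Shmt2* (0.914). The cationic amino acid transporters *Slc7a1* and *Slc7a3* thus stood among each other's nearest genes. *Slc7a11* was closest to *Gpr75* (0.932), *Slc3a2* to *Slc16a1* (0.955), *Slc7a5* to *Cope* (0.924), *Slc6a9* to *Dnajb9* (0.949) and *Slc38a2* to *4930593A02Rik* (0.963). The light chain *Slc7a11* and the heavy chain *Slc3a2* correlated at 0.862 and *Slc3a2* and *Slc1a4* at 0.215.

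The genes lie on 9 chromosomes of GRCm38, so that none shares a locus with another. *Slc7a11* is at chr3:49892526-50443614, *Slc6a9* at chr4:117834506-117875198, *Slc7a1* at chr5:148327410-148399904, *Slc1a5* at chr7:16781340-16798274, *Slc7a5* at chr8:121881150-121907694, *Slc1a4* at chr11:20302180-20332713, *Slc38a2* at chr15:96687392-96699730, *Slc3a2* at chr19:8706882-8723369 and *Slc7a3* at chrX:101079210-101086020. *Slc6a9* and *Slc1a5* lie on the plus strand and the others on the minus strand.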

How the data were processed

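The authors made 10x Genomics 3′ v3 libraries of sorted nuclei, and what they deposited are unnormalized UMI counts for 32286 features in each nucleus barcode. The submitters' processing notes name Cell Ranger 6.1.0 and GRCm38. How strand and introns were counted is not given in the sources used here.

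Nuclei with more than 600 genes and under 5% mitochondrial UMIs were kept. The highest Scrublet doublet scores were removed at a rate proportional to the nucleus barcodes deposited for each library (5.89% to 10.08%). Libraries were integrated in Seurat 5.3.0 (2000 features, 17 dimensions, resolution 0.2, neurons 0.4), and clusters were named from marker lists. Of the clusters of all nuclei, 6 and 13 stayed unnamed. Several clusters of neuron-like nuclei also stayed unnamed, the largest with 996 nuclei. The L5/6 NP-like (738 nuclei) and L6b-like neurons (250 nuclei) were named but not compared. These neurons entered only the sum of all neuron-like nuclei. UMIs were summed per library and class and compared in edgeR 4.0.16 (TMM, filterByExpr, quasi-likelihood test, two-sided, prior count 0.125), with Benjamini-Hochberg adjustment over all genes tested and a threshold of 0.05. The script was tested on simulated data. Without 1 library, an arm holds 1 mouse, assumed to vary like the other arm. Other tools were DESeq2 1.42.0, limma 3.58.1, R 4.3.3, scanpy 1.11.5, scipy 1.17.1 and Python 3.11.15.

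The 9 genes and all lists were chosen with earlier results of these data known. All 9 were named whatever they showed. From the lists of other ATF4 targets and other transporters, the 5 largest calls in the subtype with most calls and any call in glia were named, and *Nupr1* in oligodendrocyte-like nuclei was one of these. One result from these lists is not reported here. For each transporter with at least 10 UMIs in every subtype, the most correlated genes were listed. Alternatives were RLE size factors, DESeq2, the earlier quasi-likelihood test, no filter, at least 10 counts, a prior count of 2, thinned counts, a minimum above 200 genes for nuclei, doublets kept, a replicate block, names without integration (scanpy), thinning of nuclei to 4000 UMIs and each library left out.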

Additional observations from a re-analysis of the deposited data

Results flagged for a closer look

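Differences between classes in the effect of the labelled genotype (log2 scale, an interaction term in edgeR, adjusted p under 0.05, Sel1L Syn-Cre over Sel1L flox/flox) are listed here as values, without an explanation. Against CA1-like neurons, the effect on *Slc7a5* was larger by 2.68 in Sst-, 2.47 in Pvalb-, 2.37 in DG-, 2.08 in L4/5 IT- and 2.03 in L6 CT-like neurons. For *Slc7a1* it was larger by 2.58 in DG-, 1.77 in Sst- and 1.20 in Pvalb-like neurons. The difference for *Slc7a3*, the other carrier of arginine and lysine, was 4.71 in DG-, 3.06 in Pvalb- and 2.53 in Sst-like neurons. That for *Slc1a4* was 2.28 in DG-, 1.46 in L4/5 IT-, 1.13 in Pvalb- and 1.06 in Sst-like neurons. *Slc6a9* differed by 1.41 in DG- and 1.29 in Sst-like neurons, and the heavy chain *Slc3a2* by 0.95 in Sst-like neurons.

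Against all neuron-like nuclei, the effect in OPC-like nuclei was larger by 3.55 for *Slc7a5*, 3.48 for *Slc7a11*, 2.14 for *Slc7a1*, 1.499 for *Slc1a4*, 1.38 for *Slc3a2* and 1.17 for *Slc7a3*. In oligodendrocyte-like nuclei it was larger by 2.04 for *Slc7a1* and 2.54 for *Slc1a4*, and in astrocyte-like nuclei the *Slc7a11* difference was -3.04.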

How the results depend on the processing

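Of 41 calls of a transporter in a class, 17 remained under every alternative, 24 were lost under at least 1 that keeps all 4 libraries, 17 without 1 library, and none turned direction. With 2 mice per label, single calls near the threshold are limited by the spread between mice. The counts under alternatives are given without the share of all genes called in the same fit. Over all neuron-like nuclei the 1 call, that of *Slc7a11*, became 7 with DESeq2, 0 with no filter and 2 with at least 10 counts. There were 2 with doublets kept, 2 with names without integration and 7 with the replicate block. Without Sel1L flox/flox replicate 1, and likewise without replicate 2, the gene called was *Slc38a2* in place of *Slc7a11*. The 2 in oligodendrocyte-like nuclei became 0 with no filter, 0 with doublets kept and 1 with thinned counts, and 1 to 2 without 1 library. The 30 in subtypes were 17 with thinned counts, 20 to 43 under the other alternatives and 19 to 34 without 1 library, and the 8 in OPC-like nuclei 7 or 8. The other ATF4 targets (95 calls in subtypes) had 62 with DESeq2, 56 with no filter, 57 with thinned counts and 64 to 118 without 1 library. Other transporters (5 calls) had 3 with no filter, 8 with names without integration, 12 with the replicate block and 4 to 10 without 1 library. The 18 differences from CA1-like neurons were 7 to 15, and the 9 between glia and neurons 4 to 6, without 1 library. At 4000 in place of 2000 UMIs, the mean share of nuclei with any of 8 transporters moved from 38.1% to 56.3% (Sel1L flox/flox) and 80.3% to 93.3% (Sel1L Syn-Cre) in OPC-like, 47.5% to 73.2% and 82.5% to 93.7% in Sst-like, and 70.8% to 89.0% and 72.7% to 86.5% in astrocyte-like nuclei. A nucleus thinned to 4000 UMIs keeps more molecules, so a higher share is expected by design. Too shallow for 4000 UMIs were 132 to 241 of the 246 to 512 OPC-like nuclei per library. Among astrocyte-like nuclei they were 161 to 518 of 220 to 753. The part of the nuclei left out and the cause of the other changes were not tested. Replicate numbers were treated as names. Deviations of same-numbered libraries correlated at -0.004 to 0.257, too few pairs to show a pairing, and the replicate block raised the calls in subtypes to 43.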
